A study of Homo sapiens with 12 samples.

Results

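DUSP4, SPRY2 and EGR3 are genes whose transcription is known to follow signalling through the RAS and ERK mitogen-activated protein kinase (MAPK) pathway. They were chosen by name, as every probe set annotated to 1 of these genes. This gave 3 of 8545 genes and 4 of 16376 probe sets: 204015_s_at and 204014_at for DUSP4, 204011_at for SPRY2 and 206115_at for EGR3. These genes, and the gene lists below, were chosen with earlier results of these data known. Counts of calls set beside the share of all probe sets or genes are therefore descriptions only. Counts at an unadjusted p under 0.05, a looser threshold, have no such share beside them and cannot be read against the shares of calls.

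RNA from SNB19 and SF539, established human glioblastoma cell lines, was hybridised to 12 Affymetrix arrays. Each line received a scramble siRNA, PARK2 siRNA#1 or PARK2 siRNA#2 by lipid transfection and was harvested at 48 h, which made 6 groups of 2 arrays. PARK2 encodes parkin, a ubiquitin ligase. All groups were transfected, and no untransfected group was analysed here. The level of PARK2 is not analysed here, so the knockdown was not checked. Nothing in the labels says whether replicates were separate cultures. The spread behind the p-values is that between these arrays alone and may be technical. Where arrays of different groups are said not to overlap, this describes the readings only. With 2 arrays per group it also occurs for small differences, and its share over all probe sets is not given.

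When a growth factor binds its receptor, RAS activates a chain of kinases that ends in ERK, and ERK switches on a set of early genes. Some of these are brakes. DUSP4 is a phosphatase of the nucleus that removes the activating phosphates from MAP kinases, and SPRY2, a Sprouty protein, acts between receptors and RAS. EGR3 is a zinc-finger transcription factor of the early growth response family, made within a short time of stimulation. In gliomas this pathway is often active through altered growth factor receptors or loss of the RAS brake NF1. Phosphorylated ERK was not measured here, so the values below are transcript levels of its known target genes.

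RefSeq promoter windows were matched for 1 of the 3 genes, SPRY2, which fell in SNB19. It had 3 start sites, and the window of the outermost is shown for its match to known ERK-responsive motifs: the 250 bases before that start, chr13:80341127-80341376 in GRCh38.p14, read on the minus strand. Capitals mark matches to motifs of factors known to act at ERK-responsive genes.

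SPRY2 promoter: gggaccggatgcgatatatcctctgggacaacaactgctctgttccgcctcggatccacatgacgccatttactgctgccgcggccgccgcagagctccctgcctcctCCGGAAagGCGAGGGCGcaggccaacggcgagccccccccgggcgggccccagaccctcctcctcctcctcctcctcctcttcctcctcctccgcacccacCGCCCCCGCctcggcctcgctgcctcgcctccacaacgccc

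The window was 70.4% G or C, against a median of 58% over all promoters. The following motifs were searched on both strands. The first capitals are an ETS core (CCGGAA), 137 to 142 bases before the start. The others are EGR sites (GCGNGGGCG), at 126 to 134 bases and, on the opposite strand, at 33 to 41 bases before it. A CArG box, an AP-1 site (TGANTCA) and a CRE (TGACGTCA) had no match in these letters. Of 35116 promoter windows of RefSeq, read at full length, 14.5% held the ETS core, 8.41% the EGR site, 6.57% AP-1, 1.65% CRE and 1.16% the CArG box. The windows of the other SPRY2 starts held no match to any of these motifs. A match is a description of letters and not a measured binding site.

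Values are on the log2 scale as deposited, so a difference of 1 is a doubling. Array medians lay between 5.94 and 6.14 and lower quartiles between 3.93 and 4.02. Probe sets carry no detection call, and a value near the lower quartile is taken here to have little signal over background. The background itself was not measured. Across probe sets, which are not independent of each other, the correlation r of replicate pairs was 0.991 to 0.998. The SF539 siRNA2 pair stood apart, with a median SD between replicates of 0.126 against 0.0658 to 0.0914 in the other groups. For DUSP4, SPRY2 and EGR3, comparisons with scramble, between siRNAs and between lines were refitted with each of its arrays left out. Where this changed a call, the refit is given. For other named genes, only the mean of both siRNAs and its difference between lines were refitted. Steps between neighbouring groups and the single-siRNA values of other genes were not. All groups share 1 estimate of the spread, and leaving out 1 array of the SF539 siRNA2 pair takes that pair's spread out of it. A call gained that way does not make a difference firmer. Of the glial marker list, 6 of 7 genes were measured. VIM lay above 13 in every group of both lines, whereas GFAP (3.48 to 4.10) and S100B (3.22 to 4.00) lay near or below the lower quartile in SF539, and AQP4 (2.98 to 3.39) below it in both lines. Leukocyte markers (4 of 5 measured) averaged 3.38 to 3.59, endothelial markers (3 of 3) 4.52 to 4.94 and epithelial markers (5 of 5) 4.79 to 5.14 per array.

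With scramble, SPRY2 and DUSP4 were well above the array median in both lines and EGR3 was near the lower quartile. DUSP4 read 7.70 and 7.59 in SNB19 and 7.92 and 7.88 in SF539 on its brighter probe set, 204015_s_at. On 204014_at it read 7.84 and 8.09 in SNB19 and 8.05 and 8.50 in SF539. The SF539 arrays were higher on the first probe set, with no overlap, and the lines overlapped on the second.

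SPRY2 read 9.08 and 9.26 in SNB19 and 9.28 and 9.29 in SF539 with scramble, which do not overlap but differ by little. EGR3 read 3.90 and 3.84 in SNB19 and 3.80 and 4.10 in SF539, which overlap. None of the 4 probe sets passed the test between the lines at scramble (limma, Benjamini-Hochberg adjustment over all probe sets at 0.05), while 44.4% of all probe sets did, and 1 of the 4, 204015_s_at, had an unadjusted p under 0.05. The differences, SF539 minus SNB19, were 0.26 ± 0.11 (SE) for 204015_s_at (limma adjusted p = 0.0904, 95% interval 0.01 to 0.50), 0.31 ± 0.19 for 204014_at, 0.12 ± 0.18 for SPRY2 and 0.08 ± 0.53 for EGR3. For 204015_s_at the difference passed with median centring (0.42, adjusted p = 0.0121), with quantile normalization (0.34, 0.0338) and with array weights (0.0440). It also passed without either SF539 siRNA2 array, in fits that no longer held that pair's spread.

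In SNB19 both brakes fell with both PARK2 siRNAs. DUSP4 on 204015_s_at went from 7.70 and 7.59 with scramble to 5.97 and 5.95 with siRNA1 and 5.93 and 5.94 with siRNA2. On 204014_at it went from 7.84 and 8.09 to 5.75 and 5.64 with siRNA1 and 5.36 and 5.25 with siRNA2. SPRY2 went from 9.08 and 9.26 to 7.85 and 7.80 with siRNA1 and 7.79 and 7.89 with siRNA2. All 4 siRNA arrays lay below both scramble arrays for each of these probe sets.

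For the mean of both siRNAs minus scramble in SNB19, DUSP4 changed by -1.70 ± 0.10, a 3.24-fold decrease (limma adjusted p = 8.79e-07), on 204015_s_at. The second DUSP4 probe set changed by -2.46 ± 0.16, or 5.51-fold (adjusted p = 2.53e-06). SPRY2 changed by -1.34 ± 0.15, or 2.52-fold (adjusted p = 0.000126). Thus 3 of the 4 probe sets were called lower, against 14.4% of all probe sets, and these calls held with each of the 12 arrays left out.

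In SNB19 each siRNA alone gave a like result. DUSP4 changed by -1.68 with siRNA1 and -1.71 with siRNA2 on 204015_s_at, and by -2.27 and -2.66 on 204014_at. SPRY2 changed by -1.34 and -1.33. The same 3 probe sets were called lower with siRNA1, where 11.5% of all probe sets were, and with siRNA2, where 13.0% were. The comparisons share the scramble arrays. Set against each other, the siRNAs gave no call among the 4 probe sets (4.26% of all were called in either direction), and 0 had an unadjusted p under 0.05. The interval of siRNA2 minus siRNA1 was -0.28 to 0.22 for 204015_s_at, -0.81 to 0.02 for 204014_at, -0.38 to 0.41 for SPRY2 and -1.47 to 0.88 for EGR3.

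EGR3 in SNB19 read 3.90 and 3.84 with scramble, 4.53 and 4.31 with siRNA1 and 3.85 and 4.40 with siRNA2. The siRNA1 arrays lay above scramble, and the siRNA2 arrays overlapped it. The mean difference of 0.40 ± 0.46 was not called (limma adjusted p = 0.59, 95% interval -0.62 to 1.42). That SE reflects the spread shared by all groups, to which the SF539 siRNA2 pair (SD 1.55) added most. In a fit of the SNB19 arrays alone the difference was not called either. The EGR3 readings in SNB19 sit between the percentiles of 22.3 and 33.4 of their arrays. EGR3 thus lay in SNB19 near the level taken here to hold little signal over background, and a fall from it might not be detected.

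Other transcripts moved with the same SNB19 arrays. The mean of 8 interferon-stimulated genes was 11.76 to 11.79 per array with scramble and 5.18 to 5.73 with the siRNAs. The mean of the 6 glial markers was 8.75 to 8.86 with scramble and 9.51 to 9.81 with the siRNAs. Of these, GFAP (3.58) and S100B (1.00) were called higher, the other 4 were not called, SLC1A3 gave -0.27, and the median change was 0.25. Their part in the fall of DUSP4 and SPRY2 was not tested.

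**Figure D1:**
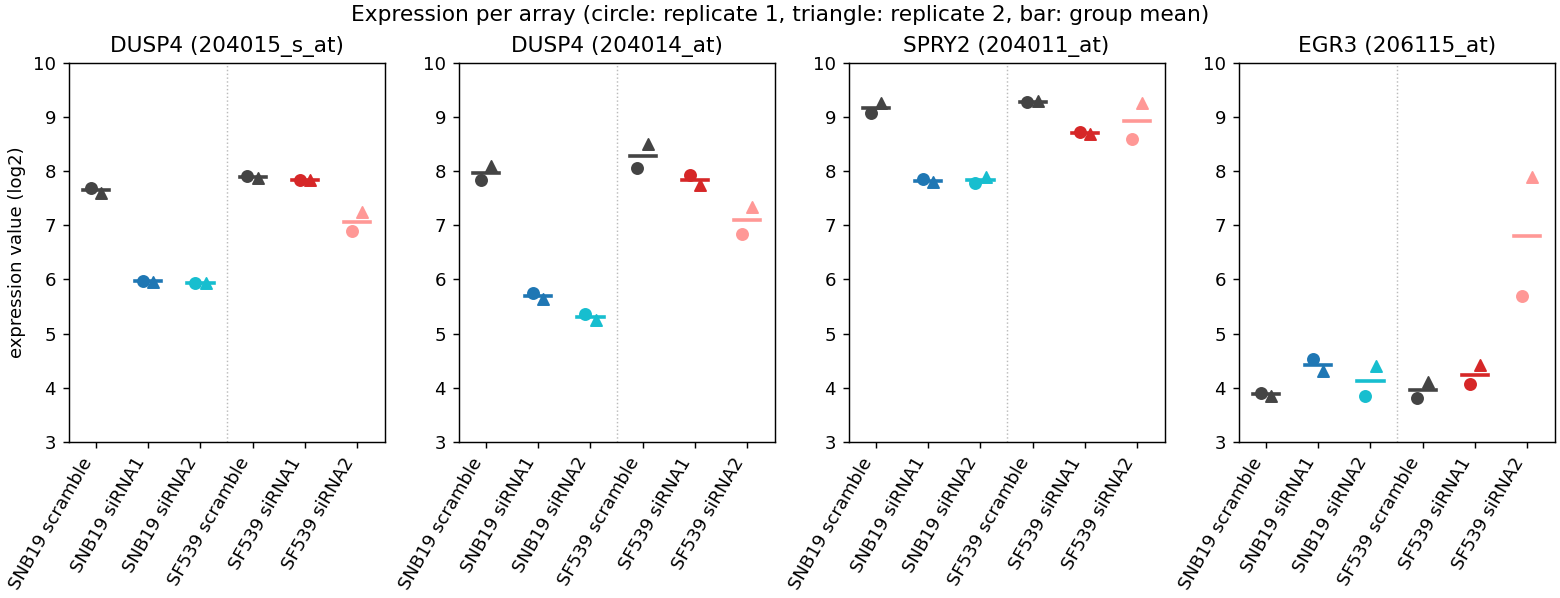
Expression value (log2, vertical axis) of each probe set on the 12 arrays, by group (horizontal axis). Circles are replicate 1, triangles replicate 2 and bars group means. DUSP4 and SPRY2 drop on all 4 SNB19 siRNA arrays, and EGR3 reaches 5.70 and 7.90 on the SF539 siRNA2 arrays against at most 4.53 on the others.

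In SF539 DUSP4 fell, by less than in SNB19, SPRY2 was not called, and EGR3 was high in 1 group. DUSP4 on 204015_s_at read 7.92 and 7.88 with scramble, 7.84 and 7.83 with siRNA1 and 6.89 and 7.24 with siRNA2. On 204014_at it read 8.05 and 8.50, then 7.93 and 7.74, then 6.84 and 7.34. The siRNA2 arrays were lowest on both probe sets. The siRNA1 arrays lay just below scramble without overlap, although neither siRNA1 difference was called.

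As the mean of both siRNAs in SF539, DUSP4 changed by -0.45 ± 0.10 on 204015_s_at, a 1.37-fold decrease (limma adjusted p = 0.0194), and by -0.81 ± 0.16 on 204014_at, or 1.76-fold (adjusted p = 0.0136). These 2 of the 4 probe sets were called lower, where 4.05% of all probe sets were. The first call did not hold without SF539 scramble replicate 1 (adjusted p = 0.111) or 2 (0.0658), without siRNA1 replicate 1 (0.0536) or 2 (0.0585), or in a fit of the SF539 arrays alone (0.136). The second did not hold without scramble replicate 2 (-0.59, 0.0969) or in SF539 alone (0.102).

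By siRNA in SF539, DUSP4 fell with siRNA2, by 0.84 ± 0.11 on 204015_s_at (limma adjusted p = 0.00154) and by 1.18 ± 0.19 on 204014_at (0.00338). These 2 probe sets were called lower where 5.98% of all were, and both calls held with each array left out. Neither passed against a 1.5-fold minimum (limma adjusted p = 0.941 and 0.287). With siRNA1 the differences were -0.07 (adjusted p = 0.843, 95% interval -0.31 to 0.18) and -0.44 (0.285, -0.86 to -0.02). None of the 4 probe sets was called with siRNA1, where 1.76% of all were called in either direction. At an unadjusted p under 0.05, where that share does not apply, 2 of the 4 passed, 204014_at and SPRY2.

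The direct test of siRNA2 minus siRNA1 in SF539 gave -0.77 ± 0.11 for 204015_s_at (limma adjusted p = 0.0156) and -0.74 ± 0.19 for 204014_at (0.0772). DUSP4 on 204015_s_at and EGR3 were called in this comparison, where 1.68% of all probe sets were. The DUSP4 call did not hold without siRNA1 replicate 1 (adjusted p = 0.134) or 2 (0.102), nor in SF539 alone (0.233).

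SPRY2 in SF539 read 9.28 and 9.29 with scramble, 8.72 and 8.69 with siRNA1, and 8.59 and 9.27 with siRNA2. The siRNA1 arrays were clearly below scramble. One siRNA2 array was the lowest of the line and the other was 0.68 higher, close to scramble. The mean of both siRNAs differed from scramble by -0.47 ± 0.15, which was not called (limma adjusted p = 0.0899, 95% interval -0.81 to -0.13). The difference was -0.30 without siRNA2 replicate 1 and -0.64 without replicate 2. It passed in both of these fits, which no longer held the spread of that pair (SD 0.48).

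By siRNA, SPRY2 differed from scramble in SF539 by -0.58 ± 0.18 with siRNA1 (limma adjusted p = 0.136) and -0.36 ± 0.18 with siRNA2 (0.217). The siRNA1 difference was called with array weights (adjusted p = 0.0369), which gave the siRNA2 pair the lowest weight. It was also called without either siRNA2 array, where that pair's spread was absent. The siRNA2 difference was -0.02 without its replicate 1 and -0.70 without its replicate 2. The siRNAs differed by 0.22 (95% interval -0.17 to 0.62, adjusted p = 0.512). That difference was 0.56 without siRNA2 replicate 1 and -0.12 without siRNA2 replicate 2.

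EGR3 in SF539 read 3.80 and 4.10 with scramble, 4.08 and 4.41 with siRNA1, and 5.70 and 7.90 with siRNA2. Both siRNA2 arrays lay above all 10 other arrays, at the percentiles of 47.5 and 67.9 of their arrays. Replicate 2 exceeded replicate 1 by 2.20, the 15th highest such difference among 8545 genes in that pair, where SPRY2 was 353rd and DUSP4 1070th.

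With siRNA2 EGR3 rose in SF539 by 2.85 ± 0.53, or 7.21-fold (limma adjusted p = 0.00729), where 7.05% of all probe sets were called higher. The call held with each array left out (1.75 without siRNA2 replicate 2 and 3.95 without replicate 1). It did not hold in SF539 alone (adjusted p = 0.0685) or against a 1.5-fold minimum (0.0838). With siRNA1 the difference was 0.29 (0.854, 95% interval -0.88 to 1.47). Because the scramble values lie near the lower quartile, the size of the rise may be bounded by background.

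Between the siRNAs EGR3 differed by 2.56 ± 0.53 (limma adjusted p = 0.0457). Its call was lost in 10 of the 12 fits that leave out 1 array, all but those without an SF539 siRNA2 array, with adjusted p from 0.0596 to 0.226, in SF539 alone (0.308), with array weights (0.0601) and with a trended robust prior (0.0602). As the mean of both siRNAs EGR3 differed from scramble by 1.57 ± 0.46, which was not called (adjusted p = 0.0623, 95% interval 0.55 to 2.59). The difference was 2.12 without siRNA2 replicate 1 and 1.02 without replicate 2. It was called in both of these fits, which no longer held the spread of that pair (SD 1.55). It was also called with array weights (0.0385), which gave that pair the lowest weight, and with the replicate number as a block (0.0427). The interferon-stimulated genes averaged 10.03 to 10.06 with scramble and 9.68 to 9.86 with the siRNAs in SF539, and their part in these differences was not tested.

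**Figure D2:**
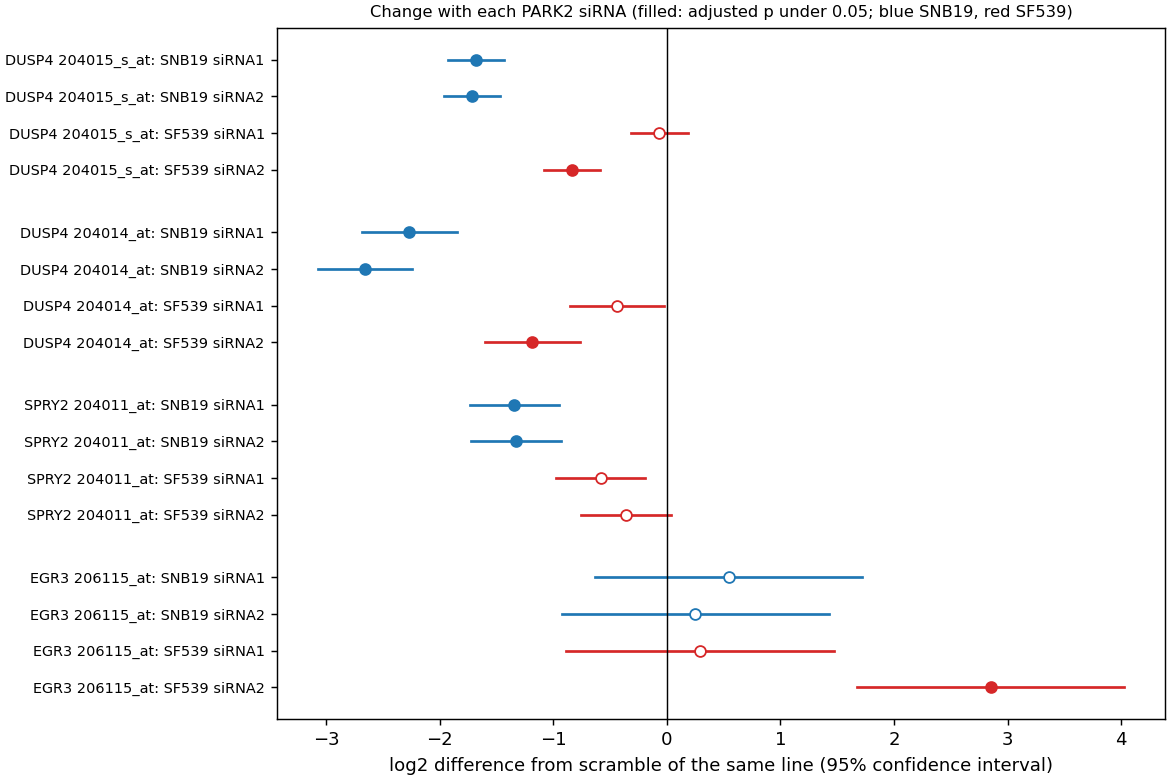
Log2 difference from scramble of the same line (horizontal axis) for each probe set, line and siRNA (vertical axis). Points are estimates, filled where the adjusted p was under 0.05, and lines are 95% confidence intervals. DUSP4 and SPRY2 lie between -2.66 and -1.33 in SNB19, and in SF539 the filled points are DUSP4 and EGR3 with siRNA2.

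The response to the PARK2 siRNAs differed between the lines for DUSP4 and SPRY2. The difference of differences, SF539 minus SNB19, was 1.25 ± 0.14 for 204015_s_at (limma adjusted p = 0.000219), 1.65 ± 0.23 for 204014_at (0.001) and 0.86 ± 0.22 for SPRY2 (0.0225), a smaller fall in SF539 in each case. These 3 of 4 probe sets were called higher, where 8.57% of all were. Both DUSP4 calls held with each array left out.

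The SPRY2 call was lost without SNB19 scramble replicate 1 (adjusted p = 0.0525) or 2 (0.098), SNB19 siRNA1 replicate 2 (0.051), SNB19 siRNA2 replicate 1 (0.0508), or SF539 scramble replicate 1 (0.0649) or 2 (0.0576). For EGR3 the lines' responses differed by 1.17 ± 0.65, which was not called (limma adjusted p = 0.264, 95% interval -0.27 to 2.61). Without SF539 siRNA2 replicate 1 it was 1.72 and passed, in a fit that no longer held the spread of that pair.

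By siRNA, the lines differed in DUSP4 with siRNA1 by 1.62 ± 0.16 on 204015_s_at (limma adjusted p = 0.000142) and 1.83 ± 0.26 on 204014_at (0.00184). These 2 probe sets were called higher where 5.73% of all were, with each array left out too. SPRY2 (0.76, adjusted p = 0.0876) and EGR3 (-0.25, 0.887) were not called. SPRY2 passed with array weights (0.0117), and without either SF539 siRNA2 array, where that pair's spread was absent. With siRNA2 all 4 were called higher, where 9.02% of all were: the differences were 0.88 (0.00456) and 1.47 (0.0044) for DUSP4, 0.97 (0.0256) for SPRY2 and 2.60 (0.0391) for EGR3. EGR3 had risen in SF539, and the others had fallen less there.

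The DUSP4 differences with siRNA2 held with each array left out. For SPRY2 the call with siRNA2 was lost without any scramble array of either line or either SNB19 siRNA2 array (limma adjusted p from 0.0503 to 0.0889) and with median centring (0.78, 0.0511). For EGR3 it was lost in 10 of the 12 fits without 1 array, all but those without an SF539 siRNA2 array, with adjusted p from 0.0567 to 0.126. It was also lost with the trended robust prior (0.0632). Its value was 1.502 without SF539 siRNA2 replicate 2 and 3.70 without replicate 1.

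Compared directly with the PARK2 siRNAs, SF539 was above SNB19 for all 4 probe sets, where 25.0% of all were called higher. The differences were 1.502 ± 0.079 for 204015_s_at (limma adjusted p = 8.07e-08), 1.96 ± 0.13 for 204014_at (5.46e-07), 0.98 ± 0.12 for SPRY2 (7.11e-05) and 1.25 ± 0.37 for EGR3 (0.0174). The lines' arrays did not overlap for DUSP4 and SPRY2 and did for EGR3. The EGR3 call was lost without SNB19 siRNA1 replicate 2 (0.0527), SNB19 siRNA2 replicate 1 (0.0644) or SF539 siRNA1 replicate 2 (0.0557).

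Ordered by group mean, DUSP4 on 204015_s_at was highest in SF539 scramble, then SF539 siRNA1, SNB19 scramble, SF539 siRNA2, SNB19 siRNA1 and SNB19 siRNA2. Neighbours differed at the step from SNB19 scramble to SF539 siRNA2, by 0.58 (limma adjusted p = 0.00173), and from there to SNB19 siRNA1, by 1.10 (2.18e-05). The other steps did not pass. No step between neighbouring groups, here or for the genes below, was refitted with arrays left out. On 204014_at SNB19 scramble stood above SF539 siRNA1, and the passing step was SF539 siRNA2 over SNB19 siRNA1, by 1.39 (0.00016).

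SPRY2 was highest in SF539 scramble, followed by SNB19 scramble, SF539 siRNA2, SF539 siRNA1, SNB19 siRNA2 and SNB19 siRNA1. Its passing step was SF539 siRNA1 over SNB19 siRNA2, by 0.87 (limma adjusted p = 0.00255). EGR3 was highest in SF539 siRNA2, above SNB19 siRNA1 by 2.38 (adjusted p = 0.0044). The other EGR3 groups were SNB19 siRNA1, SF539 siRNA1, SNB19 siRNA2, SF539 scramble and SNB19 scramble in that order. Neighbours among them did not pass against the spread shared by all groups. The SF539 siRNA2 pair (SD 1.55) added most to that spread, and the SDs of the other groups were 0.04 to 0.39.

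The relatives of the brakes were read next, each gene by its brightest probe set. In SNB19 the other Sprouty-type genes measured, 2 of 4 listed, both fell. SPRY1, another Sprouty inhibitor, went from 7.75 and 7.81 with scramble to 5.80 and 5.81 with siRNA1 and 4.72 and 5.00 with siRNA2, a change of -2.45 ± 0.16 (limma adjusted p = 2.18e-06). SPRED2, a Sprouty-related inhibitor of RAF activation, changed by -0.42 (0.00486). That call was lost without SNB19 scramble replicate 2 (0.0565), and another SPRED2 probe set gave 0.10.

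Of 8 other MAPK phosphatases measured in SNB19, 6 fell and none rose, where 16.6% of all genes were called lower and 14.7% higher. At an unadjusted p under 0.05, 7 were lower and 0 higher, and those shares do not apply at this looser threshold. DUSP10, which acts on JNK and p38, went from 8.79 and 8.93 to 5.65 and 5.96 with siRNA1 and 6.03 and 6.20 with siRNA2, a change of -2.90 ± 0.12 (limma adjusted p = 9.84e-08). DUSP6, a cytoplasmic ERK phosphatase and a usual marker of ERK output, changed by -0.98 (0.00344), DUSP8 by -0.91 (0.000166) and DUSP7 by -0.36 (0.00365).

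DUSP5, a nuclear ERK phosphatase, changed in SNB19 by -0.64 (limma adjusted p = 0.0325). Its call was lost without any SNB19 array but siRNA2 replicate 2 (up to 0.181) and with median centring (0.0735). DUSP9 changed by -0.47 (0.0342), lost without any 1 SNB19 array (up to 0.216) and with median centring (0.0972). DUSP1, an early phosphatase of several MAP kinases, differed by -0.58 (0.0704) and DUSP2 by 0.01 (0.972), and neither was called.

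In SF539 neither SPRY1 (0.29, limma adjusted p = 0.311) nor SPRED2 (0.06, 0.76) was called, also at an unadjusted p under 0.05 (0 of 2). Of the 8 phosphatases DUSP7 fell, where 3.77% of all genes were called lower and 5.57% higher. Its change of -0.37 (adjusted p = 0.0118) was lost without scramble replicate 1 (0.0803), and its other probe set gave 0.17. At an unadjusted p under 0.05, where those shares do not apply, 4 phosphatases were lower and 0 higher. DUSP6 differed by -0.68 (0.056, called with median centring at 0.0479), DUSP5 by -0.61 (0.0859) and DUSP10 by -0.28 (0.213).

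The lines' responses differed in 4 of these 10 relatives, all called higher, where 10.2% of all genes were and 7.58% were called lower. They were SPRY1 (2.73 ± 0.22, limma adjusted p = 2.64e-05), DUSP10 (2.62 ± 0.18, 6.51e-06), DUSP8 (0.98, 0.00223) and SPRED2 (0.48, 0.0258). The SPRED2 call was lost without any scramble array, SNB19 siRNA1 replicate 2 or siRNA2 replicate 1, or SF539 siRNA1 replicate 1 (up to 0.105), and with median centring (0.117). With scramble, SPRY1 read 4.80 and 5.28 and DUSP10 6.62 and 6.77 in SF539, below their SNB19 scramble arrays. For SPRY1 this was close to its readings in SNB19 with siRNA2, which left less room for a fall in SF539. DUSP6 (0.30) and DUSP5 (0.03), with negative estimates in both lines, were not called.

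**Figure D3:**
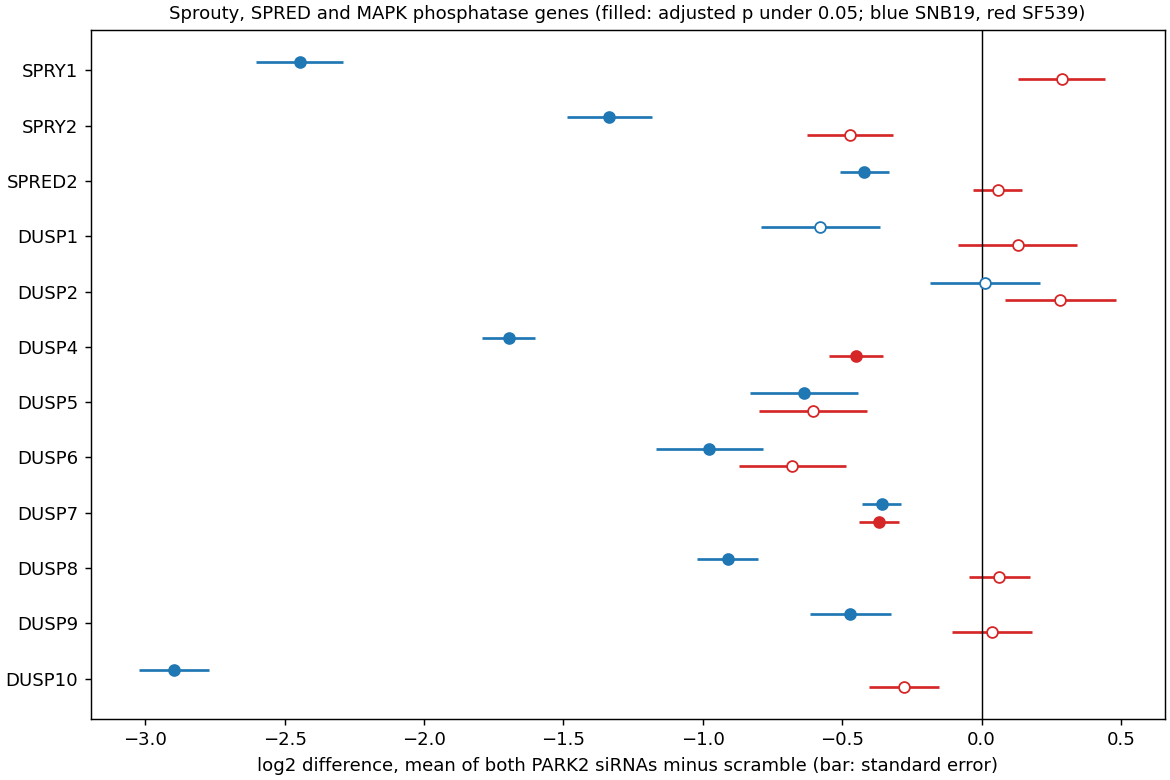
Log2 difference, mean of both PARK2 siRNAs minus scramble (horizontal axis), of the Sprouty, SPRED and MAPK phosphatase genes (vertical axis), in SNB19 (blue) and SF539 (red). Points are estimates, filled where the adjusted p was under 0.05, and bars are standard errors. SPRY1 and DUSP10 are farthest left in SNB19, at -2.45 and -2.90, and lie at 0.29 and -0.28 in SF539.

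EGR3 had 2 relatives among the genes measured here, which did not pass the test in either line. EGR1, the best-known member of the family, read 9.49 and 10.02 with scramble in SNB19, 10.87 and 11.01 with siRNA1 and 10.27 and 10.62 with siRNA2, a difference of 0.93 ± 0.33 (limma adjusted p = 0.0605, called with median centring at 0.0334). In SF539 it read 8.75 and 9.02, then 8.59 and 8.63, then 9.28 and 10.79. The siRNA2 arrays were highest and far apart, as for EGR3, and the mean difference was 0.44 (0.485). EGR4 differed by -0.09 (0.684) in SNB19 and -0.18 (0.487) in SF539.

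Among 23 immediate-early genes measured of 26 listed, EGR3 left out, 9 fell and 3 rose in SNB19, where 16.6% of all genes were called lower and 14.7% higher. The falls included IER3, a stress-induced survival gene, by changes of -1.95 (limma adjusted p = 0.000721), FOSL1, an AP-1 subunit, -1.12 (0.00104), and the transcription factors KLF6, -1.11 (0.000728), and ATF3, -1.11 (0.000136). These calls held with each array left out. The median of the list was -0.16, against -0.01 over all genes. The 3 KLF6 probe sets ranged from -1.17 to -0.16.

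In SF539, 3 of the 23 immediate-early genes fell and 1 rose, where 3.77% of all genes were called lower and 5.57% higher. KLF10 changed by -0.46 (limma adjusted p = 0.0182), IER2 by -0.40 (0.0182), MAFF by -0.52 (0.0365) and JUND, another AP-1 subunit, by 0.61 (0.0355). Each of these calls was lost with some array left out: KLF10 without SF539 scramble replicate 2 or siRNA1 replicate 2 (up to 0.111), IER2 without scramble replicate 1 or either siRNA1 array (up to 0.133). MAFF was lost without either scramble array of either line, either SNB19 siRNA2 array or either SF539 siRNA1 array (up to 0.194), and JUND without any array but the SF539 siRNA2 pair (up to 0.159). Other JUND probe sets reached -0.21.

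Of 9 other ERK output genes measured of 12 listed, 5 fell and 1 rose in SNB19, where 16.6% of all genes were called lower and 14.7% higher. ETV5 and ETV1, ETS factors induced by ERK, changed by -0.89 (limma adjusted p = 2.51e-05) and -0.81 (0.000161), and the receptor EPHA2 by -0.87 (0.00095). PLAU, the urokinase protease, rose by 0.47 (0.00103). The list's median was -0.74. Other ETV5 probe sets reached -0.18.

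In SF539, 4 of these 9 genes fell and none rose, where 3.77% of all genes were called lower and 5.57% higher. At an unadjusted p under 0.05, 8 were lower and 0 higher, and those shares do not apply at this looser threshold. The median was -0.33. PLAUR, the urokinase receptor, went from 11.93 and 12.19 with scramble to 11.33 and 11.35 with siRNA1 and 10.58 and 10.88 with siRNA2, a change of -1.02 ± 0.13 (limma adjusted p = 0.00157). CCND1, cyclin D1, went from 10.36 and 10.43 to 9.83 and 9.87, then 8.39 and 9.14, a change of -1.09 ± 0.17 (0.0039). Both calls held with each array left out.

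HBEGF, an EGF-family ligand, changed in SF539 by -0.69 (limma adjusted p = 0.0496), lost without any array but the SF539 siRNA2 pair (up to 0.195). PLAU changed by -0.33 (0.0252), lost without any SF539 scramble or siRNA1 array (up to 0.115), and its other probe set gave -1.24. The lines' responses differed with a negative sign for CCND1 (-1.27, 0.00505) and PLAU (-0.79, 0.000794), which fell in SF539, while in SNB19 PLAU rose and CCND1 was not called (0.18, 0.485).

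Upstream of ERK, 4 of 11 ligands measured of 13 listed fell in SNB19 and 2 rose, where 16.6% of all genes were called lower and 14.7% higher. The falls were the EGF-receptor ligands TGFA, by a change of -1.91 (limma adjusted p = 2.16e-06), BTC, by -1.43 (9.35e-05), and EGF, by -0.72 (0.00226), and FGF2, by -1.06 (7.65e-05). No ligand was called in SF539, where 3.77% of all genes were called lower and 5.57% higher. At an unadjusted p under 0.05, 1 of 11 ligands was higher and 0 lower in SF539. TGFA was near or below the lower quartile there (2.79 to 3.30), so a fall might not be detected. In SNB19 other TGFA probe sets lay between -2.16 and -0.51, and another FGF2 probe set gave -0.24.

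Of 11 receptors, 1 rose and 1 fell in SNB19, a share in each direction below that of all genes (14.7% higher, 16.6% lower). FGFR3 changed by 0.71 (limma adjusted p = 0.0109), lost without either scramble array (up to 0.0912), with its other probe set at -0.01. PDGFRA changed by -0.79 (0.0348), lost without any SNB19 array or either SF539 siRNA1 array (up to 0.16) and with median centring (0.065). In SF539, 2 receptors rose and 1 fell, where 5.57% of all genes were called higher and 3.77% lower. FGFR3 rose by 1.22 (0.00268), with its other probe set at -0.13. PDGFRB rose by 1.49 (0.00701), a call lost without scramble replicate 1. Its rise was 0.55 with siRNA1 (0.412) and 2.43 with siRNA2 (0.000938), and the siRNAs differed (0.0212). MET changed by -0.29 (0.0362), by -0.09 with siRNA1 and -0.50 with siRNA2, which differed (0.0457). The MET call was lost without any array but the SF539 siRNA2 pair, and other MET probe sets reached 0.20.

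The RAS to ERK cascade itself, 21 of 28 genes measured, had 3 called higher and 3 lower in SNB19, a share in each direction no larger than that of all genes (14.7% and 16.6%). PTPN11, the phosphatase SHP2 that passes receptor signals to RAS, rose by 1.10 (limma adjusted p = 2.04e-05), and SOS1, a RAS activator, fell by 0.69 (4.46e-05). Other PTPN11 probe sets reached 0.13. RPS6KA2, an ERK-activated kinase, changed by 0.62 (0.0218), lost without either scramble array, siRNA1 replicate 1 or siRNA2 replicate 2 (up to 0.127), with its other probe set at 1.85. MAP2K1, which encodes the ERK kinase MEK1, changed by -0.23 (0.0296), lost without any SNB19 array (up to 0.144) and with median centring (0.328).

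In SF539 1 of the 21 cascade genes was called in each direction, a share near that of all genes (3.77% lower, 5.57% higher). RPS6KA1 changed by 0.42 (limma adjusted p = 0.0277), lost without any SF539 scramble or siRNA1 array (up to 0.13). RRAS changed by -0.39 (0.0432), lost without any SNB19 siRNA array, any SF539 scramble or siRNA1 array or SF539 siRNA2 replicate 2 (up to 0.226).

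Of 5 brakes on RAS or receptors measured of 9 listed, RASA2 was lower in SNB19, with a change of -0.84 (limma adjusted p = 0.0388). LRIG1 was higher in SF539, by 0.84. Of all genes, 16.6% were called lower in SNB19 and 5.57% higher in SF539. The RASA2 call was lost without any array but the SF539 scramble pair and with median centring (0.053). The LRIG1 call was lost without any array but the SF539 siRNA2 pair. Of 13 JNK and p38 genes measured of 16 listed, 2 rose and 1 fell in SNB19, where 14.7% of all genes were called higher and 16.6% lower. MAP2K6 changed by 0.64 (0.023), lost without either scramble array or replicate 1 of either siRNA (up to 0.117), MAPK9 by 0.25 (0.0201), lost without any SNB19 array but siRNA2 replicate 2 (up to 0.127), and MAP3K5 by -0.53 (0.0038), lost without scramble replicate 2 (0.0581), with its other probe set at -0.95.

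In SF539, 1 of 13 JNK or p38 genes was called in each direction, where 3.77% of all genes were called lower and 5.57% higher. MAPKAPK3 changed by -0.56, a call that held with each array left out. With siRNA1 it changed by -0.25 (not called) and with siRNA2 by -0.87, and the siRNAs differed (limma adjusted p = 0.0247). These single-siRNA values were not refitted with arrays left out. MAP2K6, a p38 kinase, changed by 0.72, lost without any array but the SF539 siRNA2 pair. Over all 9 lists without the members, 103 genes of 128, 32 were lower and 12 higher in SNB19, and 11 lower and 6 higher in SF539. Over all genes 16.6% were lower and 14.7% higher in SNB19, and 3.77% and 5.57% in SF539. The lists' share higher in SNB19 was thus below that of all genes, and their share higher in SF539 close to it. The medians were -0.09 and -0.06. Counts in SF539 moved to 4 to 18 lower and 1 to 17 higher with 1 array left out, the highest without an SF539 siRNA2 array, and in SNB19 to 21 to 38 and 2 to 14. The lines' responses differed in 19 genes called higher and 6 lower, where 10.2% of all genes were called higher and 7.58% lower. With median centring, 24 were higher in SNB19 and 15 of the differences between lines were lower.

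**Figure D4:**
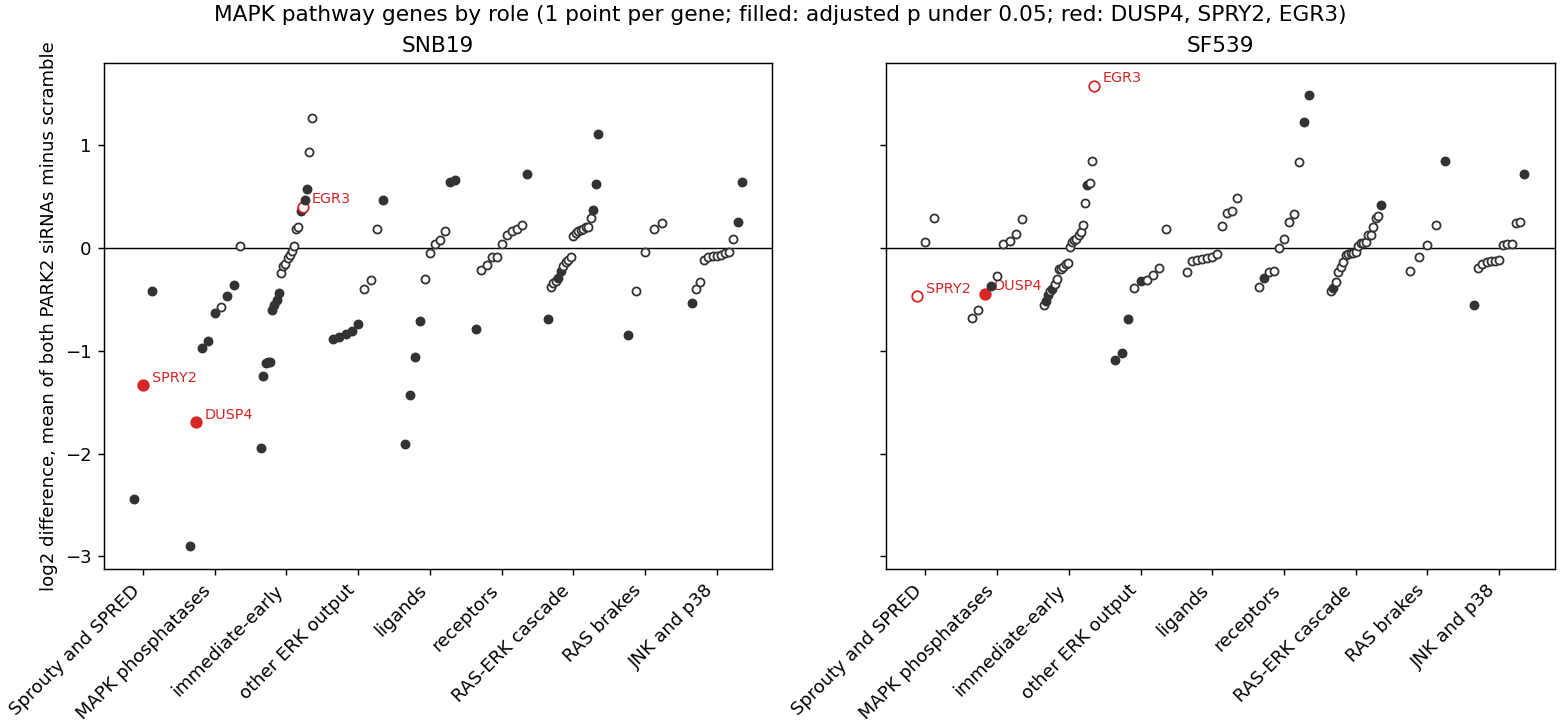
Log2 difference, mean of both PARK2 siRNAs minus scramble (vertical axis), for the genes of 9 MAPK lists by role (horizontal axis) in SNB19 (left) and SF539 (right). Each point is 1 gene, filled where the adjusted p was under 0.05, with DUSP4, SPRY2 and EGR3 in red. In SNB19 the phosphatases lie from -2.90 to 0.01, and in SF539 EGR3 lies highest, at 1.57.

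Likeness to each member was measured as the root mean square difference between group-mean profiles, each centred on its own mean over the 6 groups, among 2516 genes whose group means ranged over at least 1. The genes most like DUSP4 were ELL2 (0.222), JADE2 (0.233), IGFBP6 (0.247), KLF6 (0.254) and IFIH1 (0.261). Those most like SPRY2 were GADD45A (0.134), GLRX (0.155), NPIPA1 (0.156), IFI16 (0.159) and FAM13A (0.163). IFIH1 and IFI16 are interferon-inducible genes.

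The genes most like EGR3 were CCN5 (0.271), AGT (0.375), PLXDC2 (0.413), DAAM2 (0.416) and CXCL12 (0.431). Their means were highest in SF539 siRNA2, the pair that stood apart, as for CCN5 with 6.81 ± 0.98 (SD, n = 2) there against 4.18 to 4.68 in the other groups. DUSP4 and SPRY2 differed by 0.367, which placed SPRY2 28th among the genes like DUSP4. EGR3 differed from DUSP4 by 1.37 and from SPRY2 by 1.13. The 6 group means share their arrays, so these are descriptions.

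**Figure D5:**
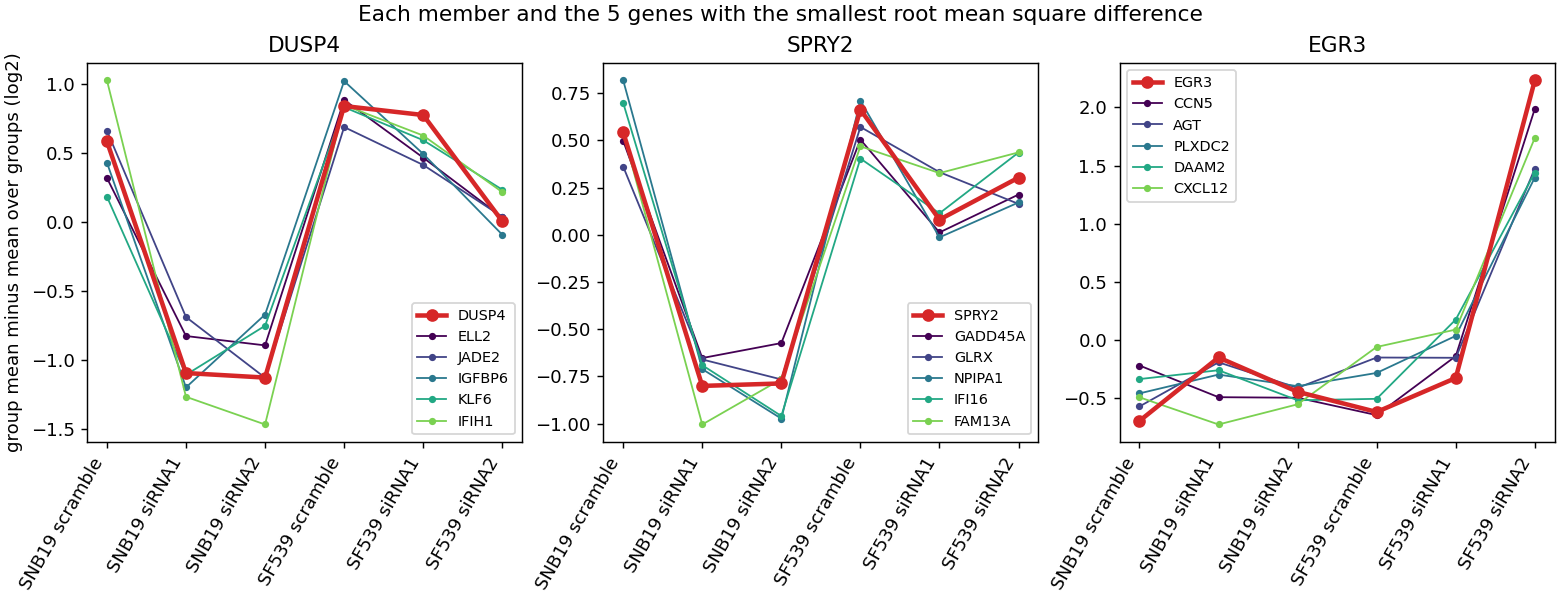
Group mean minus the mean over groups (log2, vertical axis) in the 6 groups (horizontal axis) for DUSP4, SPRY2 and EGR3 (red) and the 5 genes most like each. DUSP4 and SPRY2 are lowest in the SNB19 siRNA groups, and EGR3 is highest in SF539 siRNA2.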

How the data were processed

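Expression was measured on 12 arrays. The authors deposited log2 values per probe set, from 2.01 to 14.1, with Partek listed as a tool in the submitters' processing notes. How background was corrected and how arrays were normalized and summarised was not given in the sources used here. Of 16376 probe sets, 14038 had 1 gene, 792 several and 1546 none, and 14028 were matched by Entrez identifier to RefSeq symbols (GRCh38.p14).

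A model of 6 groups was fitted to every probe set with limma 3.58.1 in R 4.3.3, with 6 residual degrees of freedom and a prior of 3.88. Tests were two-sided, with p-values adjusted after Benjamini-Hochberg over all probe sets. A call is an adjusted p under 0.05, and errors are standard errors of the fit. A line's effect is scramble subtracted from the mean over its siRNAs. Pathway genes were read by their brightest probe set (8545 genes). Named were all members, up to 4 called genes with the smallest p per list and comparison, every other SPRY, SPRED, EGR and DUSP gene measured, and the 5 genes most like each member. The members and lists were chosen with earlier results of these data known. The levels of CCN5 and the probe sets that differ in sign were picked after their values were seen.

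The fitting code was run on simulated data with the same spread in every group. This cannot show how the shared spread behaves with a pair like SF539 siRNA2. Alternatives were each array left out (its lone partner taken to vary as other groups do), fits of 1 line alone, array weights, a replicate block, a 1.5-fold minimum, a trended robust prior, median centring, quantile normalization, the mean of probe sets, 1 probe set per gene, and leaving out the dimmest 40%. The number of arrays limits the precision.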

Additional observations from a re-analysis of the deposited data

Results flagged for a closer look

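For the following genes the response to the PARK2 siRNAs differed between the lines by the limma test of the difference itself, SF539 minus SNB19, in log2 units. DUSP4 differed by 1.25 and, on its second probe set, by 1.65, and SPRY2 by 0.864. With siRNA1 alone the DUSP4 probe sets differed by 1.62 and 1.83. With siRNA2 alone they differed by 0.878 and 1.47, SPRY2 by 0.969 and EGR3 by 2.60.

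Among the feedback relatives the differences were 2.73 for SPRY1, 0.477 for SPRED2, 2.62 for DUSP10 and 0.975 for DUSP8. With scramble, SPRY1 in SF539 was already close to its SNB19 siRNA2 level, so that its difference may be bounded there. Among the early and output genes they were 1.16 for JUND, 2.09 for IER3, 0.90 for ATF3, 0.694 for ETV5, 1.02 for EPHA4, -0.792 for PLAU and -1.27 for CCND1.

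Among ligands they were 1.67 for TGFA, 1.38 for BTC, 0.951 for FGF2 and 0.93 for EGF. TGFA was near or below the lower quartile in SF539, so that its difference may be bounded there. Among receptors they were 1.62 for PDGFRA and 1.31 for PDGFRB. In SF539 these receptors changed by 0.06 and 0.55 with siRNA1, not called, and by 1.61 and 2.43 with siRNA2. In the cascade, its brakes and the JNK and p38 genes the differences between lines were -0.98 for PTPN11, 0.46 for SOS1, 0.554 for RPS6KA1, -0.508 for RRAS, 1.27 for LRIG1, -0.508 for MAPKAPK3 and -0.372 for MAPK9.

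The siRNA2 differences of SPRY2 and EGR3 and the SPRY2 difference over both siRNAs were lost with some arrays left out. The differences for SPRED2, PDGFRB, RPS6KA1, RRAS, LRIG1, MAPKAPK3 and MAPK9 were lost with some array left out, with adjusted p up to 0.105, 0.133, 0.104, 0.163, 0.0662, 0.0915 and 0.0983 in that order, and in each of these 7 the arrays included an SF539 scramble array. With median centring the differences for SPRED2 (0.307, adjusted p = 0.117), SOS1 (0.29, 0.0649) and RPS6KA1 (0.383, 0.0638) and the siRNA2 difference of SPRY2 (0.783, 0.0511) did not pass. Other probe sets had the opposite sign for SPRED2 (-0.24), JUND (-0.10) and ETV5 (-0.11).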

How the results depend on the processing

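No called value changed sign. Without 1 array, 4 differences of the members that were not called did: SPRY2 between the siRNAs in SF539 (0.22 to -0.12) and in SNB19, EGR3 with siRNA2 in SNB19 and EGR3 between the lines at scramble. In SNB19 the falls of DUSP4 (-2.08 to -1.57 over the other settings, -1.75 to -1.65 with 1 array left out) and SPRY2 (-1.35 to -1.21, and -1.43 to -1.24) kept their calls under all of these. In SF539, DUSP4 lost its call in a fit of that line alone (-0.450, adjusted p = 0.136) and against a 1.5-fold minimum (-0.450, 1), as did SPRY2 in the difference between lines against that minimum (0.864, 1). With arrays left out these ranged from -0.537 to -0.363 and from 0.695 to 1.03. EGR3 with both siRNAs in SF539 passed with array weights (1.57, adjusted p = 0.0385) and ranged from 1.02 to 2.12 with arrays left out. SPRY2 in SF539 ranged from -0.641 to -0.303 and the EGR3 difference between lines from 0.624 to 1.72. The 1.5-fold minimum also ended every siRNA2 call of the members, both in SF539 and in the difference between lines. It ended the DUSP4 and EGR3 calls between the siRNAs in SF539, and the second DUSP4 probe set's call over both siRNAs there. The EGR3 call between the lines with the PARK2 siRNAs was lost too (limma adjusted p = 0.272). The causes were not tested. EGR3 is among the dimmest 40%, so that setting gives no value for it.

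The labels do not say whether arrays of the same replicate number belong together. Correlations of same-numbered arrays' deviations ran from -0.200 to 0.0954, which cannot settle this. The replicate block moved the calls from 4679 to 4343 in SNB19, from 1488 to 1105 in SF539 and from 2653 to 2259 between lines. With this block EGR3 passed in SF539 (1.57, adjusted p = 0.0427), and 7 pathway genes were lower there.

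Of the pathway genes in SNB19, the 12 higher became 24 with median centring and 1 against the 1.5-fold minimum, and 2 to 14 with arrays left out; the 32 lower became 8 against that minimum and 21 to 38. In SF539 the 6 higher became 1 in that line alone and 0 against the minimum, and 1 to 17; the 11 lower became 1, 0 and, with array weights, 7, and 4 to 18. Between lines the 19 higher became 3 and the 6 lower 0 against the minimum, 15 to 30 and 3 to 13 with arrays left out, and 15 were lower with median centring.

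Median centring moved the median of all probe sets in SNB19 from -0.0029 to 0.13 and the share higher among calls from 49.5% to 70.4%, in SF539 from 55.4% to 42.5% and between lines, where the median moved from -0.02 to -0.19, from 52.9% to 24.9%. Under it the members' calls for the mean of both siRNAs, in each line and between lines, were the same, but DUSP4 gained a call between lines at scramble (0.421, adjusted p = 0.0121) and SPRY2 lost its siRNA2 difference between lines (0.783, 0.0511).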
